A study of Mus musculus with 3 samples.

Results

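Some probe sets of an Affymetrix expression array are annotated with several gene symbols, and where these are different genes 1 intensity reports all of them together. The results below describe 154 probe sets with several symbols in mouse lung, out of 45101 on the array. For 62 of them the symbols still stand for 2 or more current genes, and for 89 they resolve to 1 current gene. They were selected on measured values: each stands in at least 1 of the authors' 3 deposited comparison tables, which list only probe sets past 2-fold in their own comparison, and has several gene symbols there. Of 4310 listed probe sets, 180 had several symbols, and 26 of those were left out as immunoglobulin probe sets. The differences between the arrays thus chose the members, and everything said of those differences is a description. RNA from 3 mice aged 16 weeks was hybridised to 1 array each. The depleted lung came from a mouse of the IKKα mutant genotype KA/KA-Lori-Ikkα that was treated to deplete macrophages, and some inflammation but no tumour was seen in it. The tumour lung came from a mouse of the same genotype for which no depletion treatment is named, and was a mixture of lung squamous cell carcinoma and neighbouring tissue. The wild-type lung was normal tissue. Chuk encodes IKKα, a kinase that acts in NF-kB signalling, and Lori names the loricrin promoter, which is active in differentiating squamous epithelium. With 1 array per group no value has an error and no test was possible, so precision is limited by how few arrays there were.

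Mammalian genomes hold many families that arose by local duplication, such as the small proline-rich proteins of squamous epithelium, the serpins and cystatins that inhibit proteases, the chitinase-like lectins and the clustered protocadherins. Recent copies can be nearly identical in their transcripts, and short probes then bind them all. Such a probe set measures the summed signal of its family, and a difference cannot be given to 1 copy. A second kind of sharing is with pseudogenes and predicted gene models, most of them copies or redundant records of 1 well-known gene, as for Gapdh and Phgdh.

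Of the 154 probe sets, 101 carried 1 named gene together with predicted models or a pseudogene, and 75 of these had models with LOC numbers only. After the symbols were updated through RefSeq, 84 of the 101 resolved to 1 current gene. Named genes of 1 family made up 33 probe sets, unlike named genes 6, read-through loci 4 and gene models alone 10. The longest annotation held 27 symbols. The 154 probe sets had 130 distinct sets of symbols and were placed in 117 families. Of 55 symbol sets with 2 or more current genes, 44 lay on 1 chromosome of the GRCm38.p6 assembly, and 36 of them had at most 10 other genes between their members. For named genes of 1 family this was 28 of 29 on 1 chromosome. The suffix _s_at, which Affymetrix gives to probe sets whose probes all match several transcripts, was on 19.5% of the shared probe sets and on 51.5% of those with named genes of 1 family, against 6.45% of the listed probe sets with 1 symbol.

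Some of these families are also alike around the annotated transcript start, and others are not. Promoter windows of 300 bases, 250 before and 50 after the start, were taken from RefSeq (GRCm38.p6) for 31 families with windows for 2 to 5 genes. Over 49 gene pairs that share a probe set the median identity was 74.5%, and 8 pairs were at 90% or more. Over 465 pairs of genes from different families the median was 49.7% and the highest 55.0%, and 17 of the 49 pairs that share a probe set were at or below that highest value. Windows can be offset by a different annotated start, so these 17 pairs are not all unlike. Among them, Ifi205 and Ifi211 were 93.1% identical over 203 overlapping columns, and Sirpb1a and Sirpb1b 95.65% over 207. Xlr3a and Xlr3c were 88.6% identical over 236 such columns. Snrpn and Snurf, also among the 17, stayed low at 56.5% over 239. How many of the 17 were low through an offset was not counted. For the families printed below, identity over the overlapping stretch is given too.

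Sprr2a1, Sprr2a2 and Sprr2a3, small proline-rich precursors of the cornified envelope, are shown because their shared probe sets had some of the largest differences among the shared probe sets. The windows of Sprr2a1 and Sprr2a2 were 100.0% identical, and Sprr2a3 matched both at 100.0% over 272 overlapping columns. The capitals mark AGGAAG, the core that ETS factors bind, searched on both strands, which starts at −120 in Sprr2a1 and Sprr2a2 and at −92 in Sprr2a3 and was present in 35.4% of 32851 promoter windows. The windows lie at chr3:92215585-92215884 (plus strand), chr3:92250397-92250696 (plus strand) and chr3:92285054-92285353 (plus strand).
Sprr2a1: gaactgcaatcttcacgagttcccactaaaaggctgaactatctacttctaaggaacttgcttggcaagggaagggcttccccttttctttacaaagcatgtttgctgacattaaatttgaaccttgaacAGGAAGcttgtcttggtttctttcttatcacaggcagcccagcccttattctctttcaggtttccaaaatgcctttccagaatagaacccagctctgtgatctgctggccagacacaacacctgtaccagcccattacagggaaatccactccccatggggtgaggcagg
Sprr2a2: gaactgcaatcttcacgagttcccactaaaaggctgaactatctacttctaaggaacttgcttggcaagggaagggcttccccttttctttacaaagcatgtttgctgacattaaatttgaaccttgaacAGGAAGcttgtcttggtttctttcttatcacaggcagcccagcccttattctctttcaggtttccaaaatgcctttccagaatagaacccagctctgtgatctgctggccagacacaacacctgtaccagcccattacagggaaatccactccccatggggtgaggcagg
Sprr2a3: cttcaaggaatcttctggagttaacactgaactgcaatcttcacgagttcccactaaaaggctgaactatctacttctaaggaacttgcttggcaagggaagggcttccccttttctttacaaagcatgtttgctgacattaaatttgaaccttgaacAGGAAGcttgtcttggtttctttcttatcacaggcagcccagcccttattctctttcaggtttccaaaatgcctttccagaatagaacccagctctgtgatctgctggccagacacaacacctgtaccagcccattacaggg

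Serpinb3b and Serpinb3c, serpins related to the human squamous cell carcinoma antigens, are shown because both of their shared probe sets were bright on the tumour array alone. Their windows were 96.2% identical over 290 overlapping columns. The capitals mark the TATA box letters TATAAA, searched on both strands, which start at −41 in Serpinb3b and at −31 in Serpinb3c and were present in 13.6% of all windows. The windows lie at chr1:107161065-107161364 (minus strand) and chr1:107278322-107278621 (minus strand).
Serpinb3b: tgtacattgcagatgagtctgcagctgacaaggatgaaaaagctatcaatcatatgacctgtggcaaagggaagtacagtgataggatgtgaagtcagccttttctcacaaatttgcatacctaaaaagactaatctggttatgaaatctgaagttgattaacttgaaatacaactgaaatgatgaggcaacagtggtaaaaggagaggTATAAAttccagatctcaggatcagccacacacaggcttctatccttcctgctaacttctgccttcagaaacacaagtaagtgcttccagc
Serpinb3c: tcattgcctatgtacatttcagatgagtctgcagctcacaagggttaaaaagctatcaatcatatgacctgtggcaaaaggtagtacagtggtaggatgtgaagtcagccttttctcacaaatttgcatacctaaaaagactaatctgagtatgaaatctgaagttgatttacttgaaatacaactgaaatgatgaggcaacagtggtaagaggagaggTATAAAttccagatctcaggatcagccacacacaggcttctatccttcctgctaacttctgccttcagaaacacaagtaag

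Bcl2a1a, Bcl2a1b and Bcl2a1d encode A1, a BCL2-family survival protein of leukocytes, and are shown because their genes share all of their listed probe sets. Bcl2a1a and Bcl2a1b were 99.2% identical over 256 overlapping columns, and Bcl2a1a and Bcl2a1d 96.0% over 300. The capitals mark AP-1-like letters, TGA and TCA with any base between them, searched on both strands. They start at −120 in Bcl2a1a, −164 in Bcl2a1b and −114 in Bcl2a1d, and were present in 7.81% of all windows. In these 3 windows they read TGAATCA, a match that rests on allowing any base at the centre. Binding of AP-1 was not tested. The NF-kB letters GGG and TTTCC with 2 bases of any kind between them, present in 1.63% of all windows, were not in these 3 windows on either strand. The interferon response letters GAAA and GAAA with 2 bases of any kind between them, present in 3.44%, were not in these 3 windows. The windows lie at chr9:88956670-88956969 (plus strand), chr9:89199023-89199322 (plus strand) and chr9:88731801-88732100 (minus strand).
Bcl2a1a: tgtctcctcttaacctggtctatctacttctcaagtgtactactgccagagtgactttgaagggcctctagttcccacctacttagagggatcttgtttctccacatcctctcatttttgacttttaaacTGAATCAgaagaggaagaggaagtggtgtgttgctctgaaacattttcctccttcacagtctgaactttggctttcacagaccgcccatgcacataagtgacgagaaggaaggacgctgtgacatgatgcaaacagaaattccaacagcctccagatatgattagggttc
Bcl2a1b: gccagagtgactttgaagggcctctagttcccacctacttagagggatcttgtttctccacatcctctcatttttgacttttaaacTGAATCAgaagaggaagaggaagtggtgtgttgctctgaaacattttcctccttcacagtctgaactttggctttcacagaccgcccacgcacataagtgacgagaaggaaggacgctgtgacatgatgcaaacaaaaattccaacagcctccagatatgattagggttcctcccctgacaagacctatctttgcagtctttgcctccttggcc
Bcl2a1d: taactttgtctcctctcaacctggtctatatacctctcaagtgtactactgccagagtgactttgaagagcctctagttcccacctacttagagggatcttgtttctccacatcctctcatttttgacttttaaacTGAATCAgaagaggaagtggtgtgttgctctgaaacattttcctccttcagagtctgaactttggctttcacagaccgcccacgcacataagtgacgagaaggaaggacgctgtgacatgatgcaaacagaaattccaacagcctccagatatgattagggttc

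Intensities are linear values as deposited. Where probe sets are called brighter or dimmer, or marker intensities are summed, no difference in transcript amount between probe sets is read from it. To pass the level filter of a comparison, a probe set had to reach the 50th percentile on the array where it was brighter. That percentile was 127 on the depleted, 124 on the tumour and 128 on the wild-type array. Where the dimmer array lay below its 25th percentile, that percentile took its place and the fold is given as "at least". The 18 hybridization controls, which are added in equal amounts to every sample, differed between arrays by a median log2 of 1.00 for tumour over wild type, 0.15 for depleted over tumour and 1.18 for depleted over wild type. The median of all probe sets differed by at most 0.05 on the same scale. Whether the arrays should be aligned on the controls cannot be told from these files, and the counts for groups of families are given with the control difference removed where they change.

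In tumour over wild-type lung, 148 shared probe sets passed the level filter, of which 75 were higher and 41 lower by 2-fold or more. Over all 24438 probe sets that passed, 9.26% were higher and 10.4% lower. In depleted over tumour lung, 41 of 148 were higher and 47 lower, where 7.7% and 7.26% of all were. In depleted over wild-type lung, 41 of 135 were higher and 26 lower, where 6.24% and 6.33% of all were. The lists that defined the members fix these shares, so nothing is read from them. The median log2 difference was 1.02, −0.23 and 0.29 in the same order of comparisons, and −0.05, 0.03 and −0.03 over all probe sets. With the hybridization control difference removed, the counts were 33 higher and 56 lower for tumour over wild type, 30 and 52 for depleted over tumour, and 17 and 66 for depleted over wild type. That step takes the same value from every probe set of a comparison, and so moves all probe sets on the array towards lower. Shares over all probe sets were not counted on that scale. Nothing is therefore read from these counts, or from the group counts below with the control difference removed.

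The 13 probe sets of squamous barrier genes were bright in tumour lung. All 13 were at least 2-fold higher in tumour than in wild-type lung, with a median log2 difference of at least 3.14 when dim wild-type values are set to the 25th percentile, and all 13 were at least 2-fold lower in depleted than in tumour lung. On removal of the control difference, 11 of 13 were still higher in tumour over wild type and all 13 lower in depleted over tumour. In whole tissue, fewer cells of a type and less RNA per cell cannot be told apart. The 5 squamous epithelium markers Krt5, Krt14, Trp63, Krt6a and Sprr1b, all listed, summed to an intensity of 317 in depleted, 35769 in tumour and 342 in wild-type lung, and their part in these results was not tested.

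Sprr2a1, Sprr2a2 and Sprr2a3 shared a probe set with an intensity of 108 in depleted, 22758 in tumour and 169 in wild-type lung. That is 134-fold higher in tumour than in wild-type lung, and the ratio in the authors' deposited table is 55.1. The depleted and wild-type arrays lay close together. The brighter probe set of Sprr2a1 and Sprr2a2 alone had 33.9 in depleted, 18077 in tumour and 28.5 in wild-type lung. In tumour it was at least 520-fold above wild type. The authors' deposited table has 33.1-fold for it. A dimmer probe set of the same 2 genes and the model Gm4162 had 1.3, 163 and 3.3 on the depleted, tumour and wild-type arrays. These 3 probe sets differed in the same direction, and as 2 of them were below the 25th percentile in wild-type lung the sizes cannot be set against each other.

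Stfa1 and Cstdc5 (BC100530 in the files), which encode stefin A cystatins that inhibit cysteine proteases, shared 1 probe set with 695 in depleted, 28064 in tumour and 2.2 in wild-type lung. It exceeded the wild-type array at least 807-fold in tumour lung and at least 20.0-fold in depleted lung. The authors' deposited tables have 236-fold and 19.4-fold for these. It was the only squamous barrier probe set of the 3 that passed the filter in depleted over wild type to be past 2-fold there, and with the control difference removed the other two were past 2-fold lower in depleted lung. Stefin A genes are also expressed in neutrophils, and 5 of 6 neutrophil markers were listed, summing to 69982 in depleted, 31808 in tumour and 5740 in wild-type lung. S100a8 and S100a9 made up most of these sums, and Ltf had the opposite order, with 601 in depleted, 1201 in tumour and 1761 in wild-type lung. Their part in the Stfa1 values was not tested.

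The serpin and gasdermin families followed the tumour array. Serpinb3b and Serpinb3c, whose promoters are printed above, shared 2 probe sets. These had 12.2 and 15.1 in depleted lung, 222 and 306 in tumour lung, and 9.8 and 12.9 in wild-type lung. The tumour values exceeded wild type at least 6.40-fold in the first probe set and at least 8.79-fold in the second. The Serpinb9e, Serpinb9f and Serpinb9g probe set, which reports protease inhibitors of the granzyme-inhibiting type, had 39.3 in depleted, 176 in tumour and 55.4 in wild-type lung. Gsdmc2 and Gsdmc4, gasdermins of epithelia, had 96.2, 1100 and 70.9 in depleted, tumour and wild-type lung, and a probe set for Gsdmc2 with a model had 24.8, 674 and 51.7.

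The remaining squamous barrier probe sets paired 1 gene with a model. The late cornified envelope gene Lce3f had 106 in depleted, 3085 in tumour and 95.1 in wild-type lung, a 32.5-fold difference between tumour and wild type. The serine protease gene Prss27 had 7.5, 258 and 3.4 on the depleted, tumour and wild-type arrays, and the keratinocyte POU factor gene Pou3f1 had 26.2, 208 and 25.1. Grhl1, a grainyhead transcription factor of epithelial barriers, differed least, with 106 in depleted, 337 in tumour and 146 in wild-type lung. For comparison, all 13 genes of a list of cornified envelope genes with probe sets of their own were listed, and 11 of the 12 that passed were at least 2-fold higher in tumour than in wild-type lung, or 9 higher and 1 lower with the control difference removed.

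The 11 lymphocyte probe sets were brightest mainly in depleted lung. In depleted over wild type, 10 of 11 were at least 2-fold higher, with a median log2 difference of 2.38, and 6 with the control difference removed. In depleted over tumour 6 of 11 were higher and none lower, or 3 and none with the control difference removed, and in tumour over wild type 7 of the 10 that passed were higher and none lower, or 1 with the control difference removed. Of 5 T cell markers, Cd3d, Cd3g and Cd8a were listed and summed to 5792 in depleted, 2051 in tumour and 790 in wild-type lung. Their part in these results was not tested.

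The T cell receptor genes had several probe sets each. The 3 Tcra probe sets, all shared with A130082M07Rik, had 4880, 2130 and 4048 in depleted lung, 2314, 1029 and 2286 in tumour lung, and 772, 368 and 779 in wild-type lung. The log2 difference of depleted over wild type was 2.66, 2.53 and 2.38, and the 3 arrays kept 1 order in every probe set. Both Tcrb-J probe sets, which match Trbv1 in RefSeq and several models, had 4444 and 3988 in depleted, 1926 and 1334 in tumour, and 648 and 528 in wild-type lung. Sh2d1a encodes SAP, an adaptor of T and NK cell signalling, and had 395 in depleted, 117 in tumour and 40.6 in wild-type lung, 9.75-fold higher in depleted than in wild type.

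Acap1 and Stap1 were also brightest in depleted lung. Acap1, an ARF GTPase-activating protein gene, had 1543 in depleted, 801 in tumour and 547 in wild-type lung, and Stap1, a signalling adaptor gene, had 420, 205 and 193. The natural killer receptor genes Klra3 and Klra9 shared a probe set that was instead brightest in tumour lung, with 276 in depleted, 489 in tumour and 105 in wild-type lung. Ubash3b, a phosphatase that restrains T cell receptor signalling, had 351 in depleted, 459 in tumour and 157 in wild-type lung. Gimap3 stayed under 2-fold in all 3 comparisons of intensities, with 1009, 861 and 821 in depleted, tumour and wild-type lung, although the authors' deposited table has 2.74-fold for depleted over wild type.

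Among 19 innate immune probe sets, 11 of the 16 that passed were higher in tumour than in wild-type lung and 2 lower, and 13 of 16 were higher in depleted than in wild-type lung and 1 lower. With the control difference removed, these counts were 9 and 3 for tumour, and 6 and 3 for depleted lung. Between depleted and tumour lung most were under 2-fold, with 4 higher and 3 lower of 18. The 5 listed of 6 macrophage markers, Cd68, Adgre1, Cd163, Cd14 and Trem2, summed to 12859 in depleted, 27053 in tumour and 3333 in wild-type lung. They did not move together. Cd14 alone was brighter in depleted than in tumour lung, with 5345 in depleted, 4565 in tumour and 897 in wild-type lung. Cd163 had the largest difference between depleted and tumour lung, with 101, 2266 and 82.0 in the same order. The part of the macrophage markers in these results was not tested.

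Several of these families were high on both mutant arrays. Bcl2a1a, Bcl2a1b and Bcl2a1d shared a probe set with 5958 in depleted, 6355 in tumour and 1397 in wild-type lung, and a dimmer one with 115, 189 and 53.4. Chil3 and Chil4, chitinase-like lectins of macrophages and of type 2 inflammation, shared a probe set with 34018, 38680 and 7287 on the depleted, tumour and wild-type arrays. Clec4a2 and Clec4b1, C-type lectin receptors of myeloid cells, had 744, 648 and 261. In the shared probe sets of these 3 families the 2 mutant arrays differed by less than 2-fold and both were more than 2-fold above wild type, apart from the dimmer Bcl2a1 probe set, which did not pass the filter in depleted over wild type. This describes the merged signal and not each gene. A listed probe set of Chil4 alone, described below, was 13.9-fold lower in depleted than in tumour lung. The brighter listed probe set of Clec4a2 alone differed by 1.005-fold between them. The probe set of Chil3 and Chil4 was, after removal of the control difference, still past 2-fold above wild type on both mutant arrays, the brighter Bcl2a1 probe set in tumour lung alone, and the Clec4a2 probe set and the dimmer Bcl2a1 probe set on neither.

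Other innate immune genes shared a probe set with a model or a read-through transcript. Cfi, complement factor I, had 930 in depleted, 2395 in tumour and 72.6 in wild-type lung, 33.0-fold higher in tumour and 12.8-fold higher in depleted lung than in wild type. Cyp4f18, a cytochrome of leukotriene breakdown in neutrophils, had 1725, 1554 and 142, and Il4i1, an amino acid oxidase of myeloid cells, had 420, 588 and 32.1. The inhibitory myeloid receptor gene Cd300lf had 1563, 2031 and 388, and the transcription factor gene Nfil3 had 368, 583 and 127. A2m, the alpha-2-macroglobulin protease inhibitor, was high in tumour lung alone, with 28.7 in depleted, 623 in tumour and 87.7 in wild-type lung.

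A few innate families were high in depleted lung alone. Mrgpra2a and Mrgpra2b, which belong to the Mas-related receptors and have been described in neutrophils, shared a probe set with 470 in depleted, 101 in tumour and 103 in wild-type lung. Their promoter windows were 100.0% identical. Sirpb1a, Sirpb1b and Sirpb1c, activating signal regulatory proteins of myeloid cells, had 1397, 550 and 530, and the class I gene H2-Q6 had 8884, 3413 and 2582. With the control difference removed, only the Mrgpra2 probe set of these was still past 2-fold above wild type in depleted lung. All of them stayed past 2-fold above tumour lung. Slfn3 and Slfn4, schlafen genes of T cells and myeloid cells, had 96.1, 21.7 and 7.2 and did not pass the filter. A listed probe set of Slfn4 alone had 1218 in depleted, 435 in tumour and 101 in wild-type lung. It was 4.30-fold higher in tumour than in wild-type lung, so Slfn4 was not high in depleted lung alone. Serpina1a and Serpina1b, alpha-1-antitrypsin genes, were instead lowest in depleted lung, with 313 in depleted, 504 in tumour and 878 in wild-type lung. Ctla2a and Ctla2b, cathepsin inhibitors, had 7452, 3328 and 7843, low in tumour lung alone. With the control difference removed, their probe set was past 2-fold below wild type in depleted lung too.

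The clustered protocadherins are cell adhesion genes in which alternative first exons are spliced to shared constant exons, so 1 probe set in the constant part reports the whole cluster. The 3 Pcdha probe sets each matched 14 current genes and were dim in tumour lung. The brightest had 926 in depleted, 74.1 in tumour and 1455 in wild-type lung, which is 19.6-fold lower in tumour than in wild type, where the authors' deposited table has 7.53-fold. The others had 257, 72.4 and 836, and 105, 6.8 and 193, on the depleted, tumour and wild-type arrays. The Pcdhg probe set, which matched 22 current genes, did not share this order and had 1288 in depleted, 2021 in tumour and 3395 in wild-type lung.

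Of 7 probe sets of X- and Y-linked families, Xlr3a, Xlr3b and Xlr3c differed most, with 606 in depleted, 10.9 in tumour and 378 in wild-type lung. The related Xlr4a, Xlr4b and Xlr4c did not follow, with 4503, 1927 and 942. The Xlr families encode nuclear proteins related to the synaptonemal complex protein SYCP3. Rtl8a and Rtl8b (Cxx1a and Cxx1b in the files), derived from a retrotransposon gag gene, had 1877, 872 and 1997, and Eif2s3x, an X-linked translation initiation factor gene, had 137, 232 and 107. The Y-linked probe set, which matched 13 current gene models, had 31.6 in depleted, 18.1 in tumour and 169 in wild-type lung. The sex of the mice was not in the labels. Xist had 133 in depleted, 15608 in tumour and 188 in wild-type lung in its brightest probe set, and the Y-linked Ddx3y had 3188, 5.6 and 2510 in its brightest. Sex therefore cannot be told apart from the tumour condition for X- and Y-linked probe sets, and its part in the other results was not tested.

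The 16 probe sets of glycolysis, serine and nucleotide metabolism were higher in tumour than in wild-type lung in 11 and lower in none, with a median log2 difference of 1.47. With the control difference removed 4 were higher. Eno1, enolase, shared 2 probe sets with Eno1b, which had 4571 and 4362 in depleted, 11237 and 11128 in tumour and 3197 and 2962 in wild-type lung. The cytosolic malic enzyme gene Me1, which makes NADPH, had 584 and 665 in depleted, 3463 and 2957 in tumour and 477 and 1031 in wild-type lung. Ak4, a mitochondrial adenylate kinase gene, had 102 and 181 in depleted, 470 and 530 in tumour and 103 and 132 in wild-type lung. These 3 genes were high in tumour lung and differed by less than 2-fold between depleted and wild-type lung. An exception after removal of the control difference was 1 Me1 probe set, past 2-fold lower in depleted than in wild-type lung. The Ak4 probe set with 102 in depleted and 103 in wild-type lung was too, but it did not pass the filter in that comparison.

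Phgdh, the first enzyme of serine synthesis, had another pattern. Its 4 probe sets matched up to 9 current genes each and had 327, 1090, 1149 and 779 in depleted lung, 232, 592, 562 and 682 in tumour lung, and 128, 447, 356 and 378 in wild-type lung. All 4 were brightest on the depleted array, with log2 differences of 1.04 to 1.69 over wild type that passed 2-fold, and of 0.41 to 0.86 for tumour over wild type that did not. With the control difference removed the depleted array was no longer above wild type by 2-fold in any of the 4, and lay below it in 1. On that scale 1 of the 15 metabolic probe sets that passed was higher in depleted than in wild-type lung and 1 lower, where 8 were higher and none lower without it. Slc28a2, a nucleoside transporter gene, had 424, 228 and 101 on the depleted, tumour and wild-type arrays, and the amino acid transporter gene Slc7a5 had 512, 348 and 180. The Gapdh probe set, shared with 3 models, had 166, 383 and 35.4, a 10.8-fold difference of tumour over wild type where the authors' deposited table has 2.11-fold.

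Detoxification and lipid enzymes were mostly lower in tumour lung, in 7 of 10 probe sets against 2 higher, or 8 against 1 with the control difference removed. Cyp2a4 and Cyp2a5, cytochromes of steroid and nicotine metabolism, shared a probe set with 559 in depleted, 111 in tumour and 2746 in wild-type lung. It was 24.7-fold lower in tumour and 4.92-fold lower in depleted lung than in wild type. The Mettl7a probe sets, which report methyltransferase-like genes of lipid droplets, had 1266, 7638 and 1432 in depleted lung, 940, 2500 and 751 in tumour lung and 3247, 10262 and 2253 in wild-type lung. Acot1, a cytosolic acyl-CoA thioesterase gene, was instead brightest in depleted lung, with 2559 in depleted, 267 in tumour and 825 in wild-type lung, and a probe set shared with the mitochondrial Acot2 had 2117, 367 and 888. The glutathione transferase genes Gsta1 and Gsta2 had 149 in depleted, 930 in tumour and 405 in wild-type lung. Mogat1, a monoacylglycerol acyltransferase gene, had 14.5, 178 and 20.8.

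Of 4 airway and alveolar probe sets, 3 were lower in tumour than in wild-type lung and 1 was higher. The higher one, of the chloride channel regulators Clca3a1 and Clca3a2, had 437 in depleted, 975 in tumour and 102 in wild-type lung. Bpifb1 (U46068 in the files), a secreted airway protein, had 1001 in depleted, 67.3 in tumour and 2304 in wild-type lung, 34.2-fold lower in tumour than in wild type. Aqp5, the water channel of alveolar type I and gland cells, had 718, 337 and 2549. Kif9, a kinesin of motile cilia, had 132, 77.7 and 262. The 3 listed of 4 club cell markers summed to 45739 in depleted, 12775 in tumour and 45498 in wild-type lung. Bpifa1 among them had 3080, 17.2 and 13617 on the depleted, tumour and wild-type arrays. It was thus below wild type in depleted lung, where Scgb3a2 and Cyp2f2 were above it. The part of the club cell markers in these results was not tested. Muscle genes were lower in tumour lung too. Myh6 and Myh7, cardiac myosin heavy chains, had 1500 in depleted, 243 in tumour and 6677 in wild-type lung, and the cardiac actin gene Actc1 had 2232, 846 and 12376. All 4 cardiac muscle markers were listed and summed to 6555 in depleted, 343 in tumour and 30466 in wild-type lung. Among these markers is Myh6, which the shared probe set reports too, so the sum is not separate from it. The part of the cardiac markers in the muscle values was not tested.

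Of 10 vascular and junction probe sets, 7 were lower in tumour than in wild-type lung and none higher, and 7 were higher in depleted than in tumour lung and none lower. Vegfd (Figf in the files), a vascular growth factor of lung, had 1385 in depleted, 414 in tumour and 2901 in wild-type lung. Arhgef15, a guanine nucleotide exchange factor of endothelium, had 663 and 1123 in depleted, 179 and 304 in tumour, and 671 and 1743 in wild-type lung. Epas1, the hypoxia-inducible factor HIF-2α, had 1411, 398 and 1277 in its shared probe set. A listed probe set of Epas1 alone did not have this order, with 30764 in depleted, 16940 in tumour and 17118 in wild-type lung. Nectin3 (Pvrl3 in the files), a cell adhesion gene, had 217 and 2026 in depleted, 132 and 999 in tumour, and 430 and 3289 in wild-type lung. Ramp3, a receptor activity-modifying protein, did not follow and had 894, 306 and 230, brightest in depleted lung. All 5 endothelial markers were listed and summed to 24045 in depleted, 4625 in tumour and 30314 in wild-type lung. Kdr among them was low on both mutant arrays, with 840 in depleted, 999 in tumour and 4770 in wild-type lung. The other 4 were at least 2-fold higher in depleted than in tumour lung. The part of the endothelial markers in these results was not tested. Once the control difference was removed, 9 of 10 were lower in tumour than in wild-type lung, 5 were higher in depleted than in tumour lung, and 9 were lower in depleted than in wild-type lung, where 1 was without it.

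Secreted and matrix genes had the opposite order. Of 12 probe sets, 11 were higher in tumour than in wild-type lung, or 2 with the control difference removed, and 10 were lower in depleted than in tumour lung. Clu, the secreted chaperone clusterin, had 4 probe sets that ran from 1551 to 4035 in depleted, 4929 to 12040 in tumour and 2149 to 4689 in wild-type lung. Thbs1, the matrix protein thrombospondin 1, had 3651 and 265 in depleted, 9864 and 1611 in tumour, and 3471 and 438 in wild-type lung. Inhbb, an activin subunit, had 439, 1580 and 387, and the Prl2c probe set, which reports the placental hormone proliferin, had 16.7, 543 and 65.7. None of the 11 that passed was past 2-fold between depleted and wild-type lung, but 8 were lower in depleted lung with the control difference removed.

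Gpr137b, a lysosomal membrane protein of macrophages and osteoclasts, shared probe sets with its pseudogene or a model. Its 5 probe sets ran from 398 to 3282 in depleted, 1165 to 7027 in tumour and 557 to 2542 in wild-type lung, and 4 of 5 were at least 2-fold higher in tumour than in wild type, or 0 with the control difference removed. The 3 probe sets of Sesn1, a stress-induced inhibitor of mTORC1 signalling, had 2331, 264 and 1934 in depleted, 1141, 93.2 and 860 in tumour, and 2241, 149 and 1548 in wild-type lung. All 3 were past 2-fold between depleted and tumour lung, and none between either and wild type. After removal of the control difference, all 3 were past 2-fold lower in tumour than in wild type, 1 was lower in depleted than in wild type, and 2 were higher in depleted than in tumour lung. Of cell cycle and chromatin genes, 3 replication-dependent histone H2A genes (H2ac7, H2ac23 and H2ac24) shared a probe set with 1868 in depleted, 2634 in tumour and 329 in wild-type lung. Ccnb1, cyclin B1, had 106, 127 and 21.8.

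Among the 22 probe sets of other genes, Gria1, an AMPA glutamate receptor subunit, was the lowest in tumour over wild type, with 168 in depleted, 7.0 in tumour and 627 in wild-type lung. It was at least 17.7-fold lower in tumour than in wild type, where the authors' deposited table has 8.52-fold. Basp1, a membrane-bound signalling protein gene, had 2040, 4448 and 401, and Galnt6, which starts mucin-type glycosylation, had 386, 1450 and 151 on the depleted, tumour and wild-type arrays. Id4, an inhibitor of helix-loop-helix factors, had 632, 2222 and 823. The imprinted Snrpn and Snurf, which share 1 transcript, had 91.9, 80.9 and 331.

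Probe sets of 1 family could be set beside each other in 25 families. For tumour over wild type all 25 families had their probe sets in 1 direction, with a median range of 0.31 on the log2 scale when dim values are set to the 25th percentile. The size of the difference could still vary widely within a family. The range was 6.79 for Sprr2a, where dim values give only bounds, and 1.85 for Pcdha. For depleted over tumour this was 23 of the 24 families whose probe sets all passed, with a median range of 0.44, and for depleted over wild type 16 of 20, with 0.49. Without the control difference, these counts were 23 of 25, 23 of 24 and 19 of 20. The same value is then taken from every probe set of a family, so they are not a separate check. No family held probe sets at least 2-fold apart in opposite directions in any of the 3 comparisons, with the control difference in place or removed. These probe sets share their genes and their arrays and are not independent measurements.

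Shared probe sets could also be set beside listed probe sets with the symbol of only 1 of their genes, in 75 pairs from 39 shared probe sets. Where both were at least 2-fold apart, the direction was the same in 42 of 44 pairs for tumour over wild type, 36 of 37 for depleted over tumour and 28 of 28 for depleted over wild type. On the scale without the control difference it was the same in 31 of 31, 27 of 28 and 41 of 41. There the same value is taken from both probe sets of a pair, which moves both the same way, so these counts are not a separate check. The median gap between the pair was 0.32, 0.31 and 0.38 on the log2 scale in these comparisons. Both kinds were chosen for their differences, so these counts are descriptions.

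The widest gaps came from gene pairs that the shared probe set merges. The Chil4 probe set had 1943 in depleted, 26919 in tumour and 50.5 in wild-type lung, a log2 difference of 9.06 for tumour over wild type, where the probe set shared with Chil3 had 2.41. For depleted over tumour the Chil4 difference was −3.79 and the shared one −0.19, so the shared probe set showed neither the size of the tumour difference nor the lower value in depleted lung. The Clca3a2 probe set (Clca2 in the files), of a calcium-activated chloride channel regulator, had 18.9, 824 and 12.2 on the depleted, tumour and wild-type arrays, where the probe set shared with Clca3a1 had 437, 975 and 102. The probe set of Clca3a1 alone had 448, 510 and 107. The Myh6 probe set had 3216, 35.1 and 11009, at least 310-fold lower in tumour than in wild type, where the probe set shared with Myh7 was 27.5-fold lower.

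In 2 pairs the direction was opposite at 2-fold for tumour over wild type, and in neither with the control difference removed. The Gsta2 probe set had 200 in depleted, 213 in tumour and 588 in wild-type lung, and was lower in tumour than in wild type by 1.47 on the log2 scale, whereas the probe set shared with Gsta1 was 1.20 higher. The Chst11 probe set, of a chondroitin sulfotransferase gene, had 591, 1434 and 589, high in tumour lung alone, whereas the probe set annotated to Chst11 and Phactr1 had 571, 248 and 848. This pair was opposite for depleted over tumour too, at −1.28 for Chst11 alone and 1.20 for the shared probe set. There it stayed opposite at 2-fold with the control difference removed. The 2 probe sets of Phactr1 alone, a phosphatase and actin regulator, had 302 and 727 in depleted, 206 and 332 in tumour, and 666 and 1311 in wild-type lung, in the order of the shared one. Chst11 and Phactr1 lie on different chromosomes and their promoter windows were 42.0% identical, below the median for unrelated genes.

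The limit of 2-fold in the deposited tables was set on the authors' ratios, which are not the ratios of the deposited intensities. Just inside it for tumour over wild type was Plac9, at 2.00-fold in the authors' deposited table, with intensities of 123 in depleted, 124 in tumour and 256 in wild-type lung. Just outside was the Gsdmc2 and Gsdmc4 probe set, at 1.98-fold in the authors' deposited table and 15.5-fold in the intensities. For depleted over tumour the dimmest Pcdha probe set lay just inside and Noct (Ccrn4l in the files) just outside, both at 2.00-fold in the authors' deposited table. For depleted over wild type Plac9 lay just inside and Nectin3 just outside, at 1.93-fold in the authors' deposited table. The intensities and the authors' deposited ratios had opposite signs in none of the 148 members that passed for tumour over wild type, in 6 of 148 for depleted over tumour and in 8 of 135 for depleted over wild type, and none of these was past 2-fold in both. A gap of more than 1.5-fold between the 2 sources occurred in 29, 28 and 14 members in the same order of comparisons.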

How the data were processed

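RNA from 3 mouse lungs (100 ng each) was labelled with biotin and hybridised to 1 Affymetrix array per group, per the labels' protocols. The authors deposited linear intensities, 1 per array for every probe set. The submitters' processing notes name Partek, with no version. Summarization and scaling are not given in the sources used here. The authors also deposited 3 tables of ratios, as linear folds per the file headers, from which gene symbols were taken. Title and accession cells end at 80 characters.

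Log2 differences of the intensities were computed with no further scaling, with the level filter and lower bounds given above, at a threshold of 2-fold. No p-value was computed. Symbols were updated through the RefSeq gene table (GRCm38.p6), and no coordinates are given for probe sets, as no source names the array's build. Named genes counted as 1 family if their symbols shared the first 3 letters. Promoter identity stands in place of a comparison of proteins, whose sequences were not used here, and was chosen after the references were seen. Named members were up to 4 per group of families with the largest differences, the 10 highest and 10 lowest per comparison, members with the same symbols, and those at the 2-fold limit, and further members are given by value to describe each group. The members, families and lists were chosen with earlier results of these data known. Alternatives were other scalings, level filters, thresholds, subsets of members and the authors' deposited ratios, and leaving out X- and Y-linked families was added after seeing the data. Medians and ranges with dim values at the 25th percentile, and group counts with the control difference removed, were computed from the same values. The steps were tested on simulated data. Python 3.11.15, numpy 2.4.6, pandas 2.3.3 and Biopython 1.88 were used.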

Additional observations from a re-analysis of the deposited data

How the results depend on the processing

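The counts of shared probe sets at least 2-fold apart (75 higher and 41 lower for tumour over wild type, 41 and 47 for depleted over tumour, 41 and 26 for depleted over wild type) stayed within 1.5 times in all 6 cases with no level filter, with median scaling, with quantile normalization, with dim values set to the 25th percentile, with the authors' deposited ratios, with 1 probe set per set of symbols, without _x_at probe sets and without X- and Y-linked families. With the hybridization control difference removed, they were 33 higher for tumour over wild type, and 17 higher and 66 lower for depleted over wild type. The same value was taken from all probe sets on the array, whose shares were not counted on this scale. The filter at the 75th percentile gave 26 higher and 17 lower for depleted over wild type. At 1.5-fold, 40 were lower for depleted over wild type. At 3-fold, 41 were higher for tumour over wild type, 17 higher and 26 lower for depleted over tumour, and 25 higher and 11 lower for depleted over wild type. Members with 2 or more named genes alone gave 22 and 17, 13 and 15, and 12 and 10, from fewer probe sets. Among the 154 shared probe sets, all 271 differences of at least 2-fold kept their sign with median scaling, quantile normalization, dim values raised and the authors' deposited ratios, and 63 moved by over 1.5-fold with those ratios and 20 with dim values raised. Removing the control difference left 265 with their sign, of which 177 moved by over 1.5-fold. The other 6, all for depleted over wild type, turned to log2 differences of −0.10 for Gnpda1, −0.14 for a Phgdh probe set, −0.015 for Snx5, −0.066 for Stap1, −0.15 for Tnfrsf22 and −0.022 for Ubash3b, since the value subtracted was 1.18. No paired analysis was possible because each group had 1 array. Probe sequences and detection calls were not used here, so the share of each gene in a shared signal is not known, and dim arrays give only bounds.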

Other observations

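Several shared probe sets carried only clone or model names in the files. The 2 probe sets of Dipk2a (1190002N15Rik in the files), a secreted kinase-like protein gene, had 1111 and 1254 in depleted, 1229 and 1081 in tumour, and 3112 and 2785 in wild-type lung, low on both mutant arrays. Stmnd1 (Gm1574 in the files) had 601 in depleted, 148 in tumour and 806 in wild-type lung. A probe set of 9930105H17Rik with a model, which matched no current gene, had 782, 705 and 3901 on the depleted, tumour and wild-type arrays. The A130040M12Rik probe sets, which matched no current gene either, had 8792 and 8375 in depleted, 14216 and 14841 in tumour, and 4865 and 5583 in wild-type lung. The Gm2897 probe sets, which matched 9 and 10 gene models on chromosome 14, had 578 and 412 in depleted, 366 and 202 in tumour, and 400 and 216 in wild-type lung.

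Hspa8, a constitutive chaperone, had 208 in depleted, 609 in tumour and 653 in wild-type lung, low on the depleted array alone in a probe set shared with 2 models. With the control difference removed, it was past 2-fold below wild type in tumour lung too.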
